A study of Mus musculus with 6 samples.

Results

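Car2 encodes carbonic anhydrase 2, and its transcript was counted in situ in all 6 mouse tissue sections of a study of blood-forming organs. The gene was chosen by name and is 1 of 477 genes on a smaller probe panel and 1 of 5050 on a larger one. All animals were wild-type mice, and no transgene or deletion was carried by any of them. The smaller panel was read on an embryonic day 14.5 (E14.5) fetal liver, the femoral bone marrow of a mouse 8 days after birth (P8), the spleen of an untreated adult (labelled NC in the source) and the spleen of a mouse given phenylhydrazine (PHZ), which destroys red cells and provokes stress erythropoiesis. The PHZ mouse received 40 mg/kg by intraperitoneal injection 2 times a day for 2 days. The larger panel was read on an E13.5 fetal liver and on bone marrow of an 89-week-old mouse. The sections were 5 µm thick and cut from formalin-fixed, paraffin-embedded tissue. The 89-week marrow was fixed and freed from bone beforehand, whereas the P8 section also held bone, cartilage and muscle.

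Each condition is represented by 1 section, so no test between conditions was possible and no p-values are given. Intervals in the text are exact Poisson intervals for counts, exact Clopper-Pearson intervals for shares of cells and exact conditional binomial intervals for ratios of levels, all at 95%. They cover counting error only and take no account of differences between animals, sections or cells. Levels are Car2 counts per 1000000 counts of all panel genes (CPM), or counts per segmented cell.

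Carbonic anhydrases interconvert carbon dioxide and water with bicarbonate and a proton. In red cells the cytosolic enzyme encoded by Car2 supplies bicarbonate to the anion exchanger Slc4a1 (band 3), which carries it across the membrane in exchange for chloride as blood moves between tissue and lung. Outside the red cell lineage the same enzyme is best known from acid-secreting cells, among them the osteoclast, where it feeds protons to the vacuolar proton pump that dissolves bone mineral. Both settings were present in these sections, erythroid cells in all 6 and bone surfaces in the P8 femur.

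Depth ranged from a median of 60 to 190 gene counts per cell across the sections, with 5285 to 143810 cells. Car2 was read by 4 probe sets on the smaller panel and 5 on the larger, while Slc4a1 was read by 8 and 2, so neither levels nor Slc4a1 classes were compared across panels. Cells were expanded nuclei on the smaller panel and were outlined with boundary stains on the larger. The E14.5 liver and the P8 marrow shared a slide, as did both spleens. Pairs of sections had between 0 and 6 cell names in common. Tissue markers followed the labels on the smaller panel. The 8 hepatocyte markers summed to 46479 CPM in E14.5 liver and to at most 480 CPM in the other 3 sections, the 4 T cell markers were highest in untreated spleen at 25630 CPM, and the 5 cartilage markers reached 43659 CPM in P8 marrow. On the larger panel only 1 of the 8 hepatocyte markers was present, at 2.89 CPM in E13.5 liver and 4.06 CPM in 89-week marrow, so it did not mark the liver there.

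Car2 was among the most abundant transcripts wherever erythroid cells were common. In the E14.5 liver 667450 Car2 counts were recorded in 117329 cells, which is 31856 CPM (31780 to 31932) or 5.69 per cell. P8 marrow held 168575 counts in 52594 cells, at 26149 CPM (26025 to 26274) and 3.21 per cell. The PHZ spleen held 291374 counts in 94582 cells, at 25491 CPM (25399 to 25584) and 3.08 per cell. The untreated spleen stood far below these, with 30743 counts in 108338 cells, 2970 CPM (2937 to 3003) and 0.284 per cell. By raw counts Car2 ranked 10th, 6th and 5th of 477 genes in E14.5 liver, P8 marrow and PHZ spleen and 88th in the untreated spleen. Divided by the number of probe sets, which approximates a level between genes, it ranked 3rd, 3rd, 2nd and 48th.

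On the larger panel E13.5 liver held 26240 counts in 5285 cells, at 18949 CPM (18720 to 19179) and 4.97 per cell, and 89-week marrow held 226241 counts in 143810 cells, at 17332 CPM (17261 to 17404) and 1.57 per cell. Car2 was 3rd of 5050 genes by raw counts in E13.5 liver and 1st in 89-week marrow, and 9th and 8th per probe set. The brightest negative control probe of any section reached 105 counts. Within the smaller panel the order of CPM was E14.5 liver, P8 marrow, PHZ spleen and untreated spleen. The neighbouring P8 marrow and PHZ spleen differed by 1.03-fold (1.02 to 1.03), and their order turned when counts were divided by segmented area, at 29951 per mm2 in P8 marrow and 43837 per mm2 in the PHZ spleen. E14.5 liver was 1.22-fold above P8 marrow in CPM but 1.77-fold per cell, and it held 98713 counts per mm2. With 1 section each, the spread that such differences would have to exceed is unknown.

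Car2 was detected in 93.0% of cells in E14.5 liver, 62.6% in P8 marrow, 65.0% in the PHZ spleen, 13.3% in the untreated spleen, 81.2% in E13.5 liver and 33.0% in 89-week marrow. The share of cells with at least 1 Slc4a1 count was 97.0%, 66.0%, 64.8%, 11.3%, 70.1% and 23.8% in the same order. Cells of the untreated spleen led by the T cell markers and without an Slc4a1 count had Car2 in 5.47% (5.16 to 5.79) of cases, at a median of 83 gene counts. Over tiles of 100 µm, the 10% of tiles with most Car2 held 16.2% of it in E14.5 liver and 21.6% in the PHZ spleen, but 42.0% in the untreated spleen, where these tiles had 8.42% of the cells and 58.3% of those with 10 or more Slc4a1 counts. In P8 marrow the richest tiles held 47.7% of the Car2 with 31.3% of the cells and 50.1% of those with 10 or more Slc4a1 counts, and 134 of 705 tiles held none.

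Cells were then divided by their Slc4a1 count, 0, 1 to 4, 5 to 9 and 10 or more. In every section Car2 was higher in each class than in the one below it. E14.5 liver went from 7983 CPM in cells without Slc4a1 through 16587 and 25915 to 38584 CPM in cells with 10 or more. P8 marrow went from 2229 through 16587 and 37885 to 48112 CPM. In the untreated spleen the classes stood at 1319, 7255, 20235 and 35713 CPM, and in the PHZ spleen at 5139, 21215, 35038 and 38736 CPM. E13.5 liver went from 6547 through 17601 and 30050 to 36912 CPM, and 89-week marrow from 6608 through 28849 and 50717 to 53997 CPM.

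**Figure D1:**
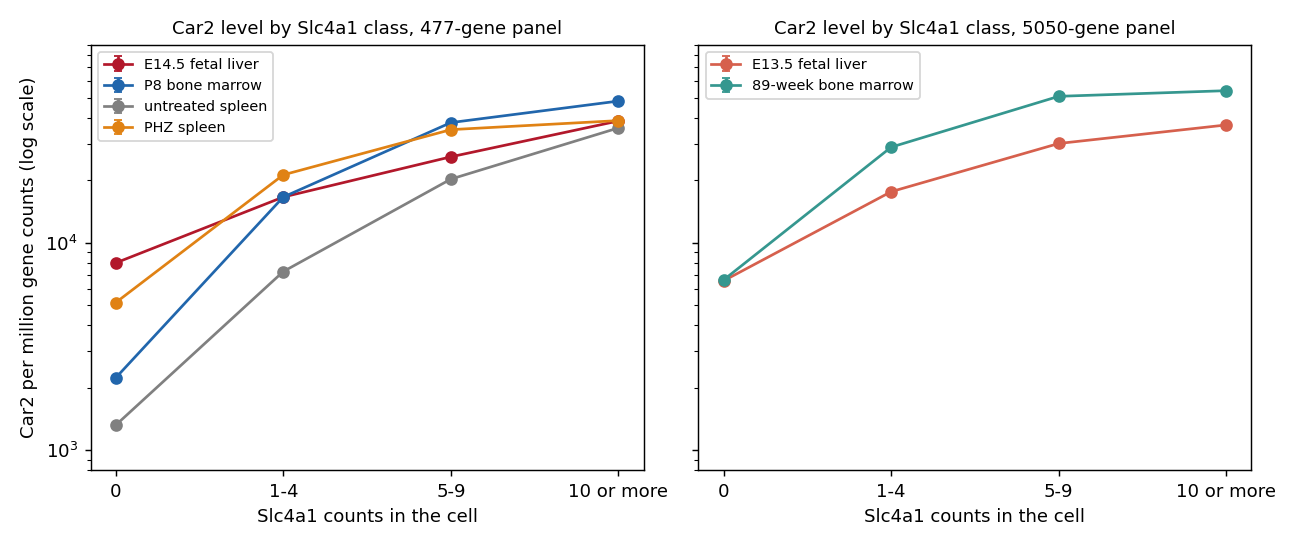
Car2 in CPM (log scale) against the number of Slc4a1 counts in the cell, smaller panel on the left and larger on the right; 1 point is 1 class of cells of 1 section and bars are 95% Poisson intervals. Every line climbs, and in the smaller panel the sections are farther apart on the log scale at 0 Slc4a1 (1319 to 7983) than at 10 or more (35713 to 48112).

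The level in cells with 10 or more Slc4a1 counts exceeded that in cells with none by 4.83-fold (4.68 to 4.99) in E14.5 liver, 21.6-fold (20.9 to 22.3) in P8 marrow, 27.1-fold (26.3 to 27.9) in the untreated spleen, 7.54-fold (7.41 to 7.67) in the PHZ spleen, 5.64-fold (5.40 to 5.89) in E13.5 liver and 8.17-fold (8.07 to 8.27) in 89-week marrow. Genes at least 2-fold higher in the same contrast made up 5.47% of the 457 genes tested in E14.5 liver, 21.2% of 396 in P8 marrow, 6.51% of 461 in the untreated spleen, 7.00% of 443 in the PHZ spleen, 6.67% of 1424 in E13.5 liver and 8.94% of 3345 in 89-week marrow. Genes at least 2-fold lower made up 59.7%, 41.4%, 69.4%, 86.0%, 18.2% and 55.9% in the same order. Counted per cell the difference was larger, at 6.77, 33.1, 65.7, 16.1, 7.63 and 26.5-fold. In P8 marrow it was 8.54-fold in CPM when cells were divided by Hemgn in place of Slc4a1. With Slc4a1 left out, Car2 ranked 8th, 12th, 8th, 20th, 11th and 34th by fold. Cells rich in Slc4a1 also held more counts in all, with medians of 190 against 128 in E14.5 liver and 207 against 81 in the untreated spleen. Thinned to 50 gene counts per cell, the fold was 4.70, 19.9, 27.8, 8.28, 4.82 and 9.75 in the order above. This left out shallower cells, 265, 5287, 16229, 9379, 220 and 53383 of those without Slc4a1 and 0 to 30 of those with 10 or more. In the thinned cells Car2 was found in 84.7% of the Slc4a1-rich class and 29.2% of the Slc4a1-negative class in E14.5 liver, and in 80.1% and 5.28% in the untreated spleen.

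Most members of the erythroid list, 20 genes of heme synthesis, globin, iron uptake, membrane and lineage factors, moved with Car2. Of the members with enough counts, 13 of 19 were at least 2-fold higher in the Slc4a1-rich cells of E14.5 liver, 17 of 19 in P8 marrow, 16 of 20 in the untreated spleen, 18 of 20 in the PHZ spleen, 6 of 10 in E13.5 liver and 8 of 10 in 89-week marrow. At least 2-fold lower were 2, 1, 3, 2, 1 and 2 members in the same order, among them Podxl at 0.477-fold in E14.5 liver and 0.388-fold in P8 marrow. The median fold of the list was 2.72, 16.3, 16.9, 8.46, 2.70 and 5.01. On the log2 scale the median of all tested genes was -1.34, -0.49, -1.58, -2.40, -0.33 and -1.27 in the same order. Hemgn, a nuclear regulator of erythroid cells, went from 1025 CPM without Slc4a1 to 42163 CPM with 10 or more in P8 marrow. Kit, the receptor for stem cell factor and a gene of early progenitors, was lower in the Slc4a1-rich cells of E14.5 liver, at 1442 against 4661 CPM, and of both spleens, at 825 against 1944 in the untreated and 901 against 1851 in the PHZ spleen. In P8 marrow it was higher in the Slc4a1-rich cells, at 975 against 782 CPM.

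Within the Slc4a1-rich class nearly every cell had Car2. It was found in 99.5% of these cells in E14.5 liver, 99.6% in P8 marrow, 98.7% in the untreated spleen, 99.6% in the PHZ spleen, 99.8% in E13.5 liver and 99.9% in 89-week marrow. The median was 7 counts per cell in all 4 smaller-panel sections, with a 5th percentile of 2 and a 95th of 14 to 17, and it was 12 and 13 on the larger panel. The SD over cells was 4.15 counts in E14.5 liver, 4.09 in P8 marrow, 4.70 in the untreated spleen and 3.62 in the PHZ spleen, and it describes cells of 1 section. For every Slc4a1 count there were 0.457, 0.505, 0.478 and 0.493 Car2 counts in these cells of E14.5 liver, P8 marrow, untreated spleen and PHZ spleen. The cells were chosen by their Slc4a1 count, which bounds this ratio, and in cells with 1 to 4 Slc4a1 counts it was 0.929, 0.859, 0.548 and 1.04. For every Hemgn count the Slc4a1-rich cells held 0.728, 1.14, 1.18 and 0.937 Car2 counts. The class contributed 74.1% of all Car2 in E14.5 liver, 58.3% in P8 marrow, 50.4% in the PHZ spleen and 21.8% in the untreated spleen.

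Finer steps in Slc4a1, with Slc4a1 itself taken out of the total, showed no upper turn on the smaller panel. In E14.5 liver Car2 was 36932 CPM at 10 to 14 Slc4a1 counts, 42742 at 15 to 19, 46285 at 20 to 29 and 49379 at 30 and above. P8 marrow stood at 50018, 54541, 57626 and 58518 CPM at these steps. The PHZ spleen climbed least, at 40748, 42571, 44332 and 46216 CPM. On the larger panel 89-week marrow was at 56595 CPM at 10 to 14 counts and 57277 CPM at 15 to 19, with intervals of 55926 to 57270 and 56213 to 58356 that overlap. E13.5 liver was at 36892 CPM (35779 to 38032) and 41424 CPM (39542 to 43372) at these steps, with intervals that do not overlap.

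Hbb-bt, an adult beta globin gene, gave a second ordering inside the Slc4a1-rich class of the smaller panel. Cells were ranked by Hbb-bt counts over a total from which Hbb-bt and Slc4a1 were removed, and divided into 4 bands of about equal size. Car2 was divided by the same total. A small total raises both values, so the CPM of Car2 cannot by itself show a rise over the bands. Car2 relative to the remaining genes stood at 40245 CPM in the lowest band and 53581 CPM in the highest in E14.5 liver, 50095 and 68396 in P8 marrow, 33501 and 49067 in the untreated spleen, and 39258 and 56027 in the PHZ spleen. The count per cell went up over the first 3 bands in every section and was lower again in the highest. Intervals were not computed for these counts, so small steps, such as 8.53 to 8.55 in the untreated spleen, do not show a rise. In E14.5 liver it was 7.67, 8.08, 8.16 and 7.27 from the lowest to the highest band, and in P8 marrow 7.87, 7.96, 8.13 and 7.03. It was 7.26, 8.53, 8.55 and 7.20 in the untreated spleen and 6.86, 7.43, 7.58 and 7.30 in the PHZ spleen, where the highest band stayed above the lowest. Over the same bands the median of all counts per cell went from 203 to 162 in E14.5 liver and Kit from 3010 to 907 CPM.

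Each Slc4a1 class was also split by Kit. Among cells without Slc4a1, those with Kit had more Car2 than those without it, at 11358 against 5863 CPM in E14.5 liver, 7071 against 1780 in P8 marrow, 2543 against 1106 in the untreated spleen, 12969 against 3834 in the PHZ spleen, 9490 against 6238 in E13.5 liver and 15736 against 6282 in 89-week marrow. At 10 or more Slc4a1 counts the order was turned. Kit-positive cells had 34323 against 39512 CPM in E14.5 liver, 45493 against 48476 in P8 marrow, 32619 against 36180 in the untreated spleen and 35859 against 39137 in the PHZ spleen. The ratio went from 1.94 to 0.869 in E14.5 liver, from 3.97 to 0.938 in P8 marrow, from 2.30 to 0.902 in the untreated spleen and from 3.38 to 0.916 in the PHZ spleen. On the larger panel Kit-positive cells were lower in CPM at 1 to 4 Slc4a1 counts. They had 12323 CPM (11306 to 13408) in 73 cells against 18088 in E13.5 liver, and 25303 CPM (24179 to 26466) in 262 cells against 28960 in 89-week marrow. In that class of the smaller panel Kit-positive cells were higher, at 19575 against 14529 CPM in E14.5 liver, 23078 against 15173 in P8 marrow, 10127 against 6573 in the untreated spleen and 26017 against 19659 in the PHZ spleen. Kit, like Slc4a1, was read by 8 probe sets on the smaller panel and 2 on the larger. The class and the Kit split therefore need not hold like cells on both panels, and no earlier turn is shown. Larger-panel sections had few Kit-positive cells in the top class, 6 in E13.5 liver and 13 in 89-week marrow. Per cell, Kit-positive cells had more Car2 even in the top class on the smaller panel, for example 8.34 against 7.70 in E14.5 liver. At 1 to 4 Slc4a1 counts on the larger panel they also had more per cell, at 7.40 against 4.06 in E13.5 liver and 7.27 against 2.92 in 89-week marrow. There too the direction depended on the scale.

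**Figure D2:**
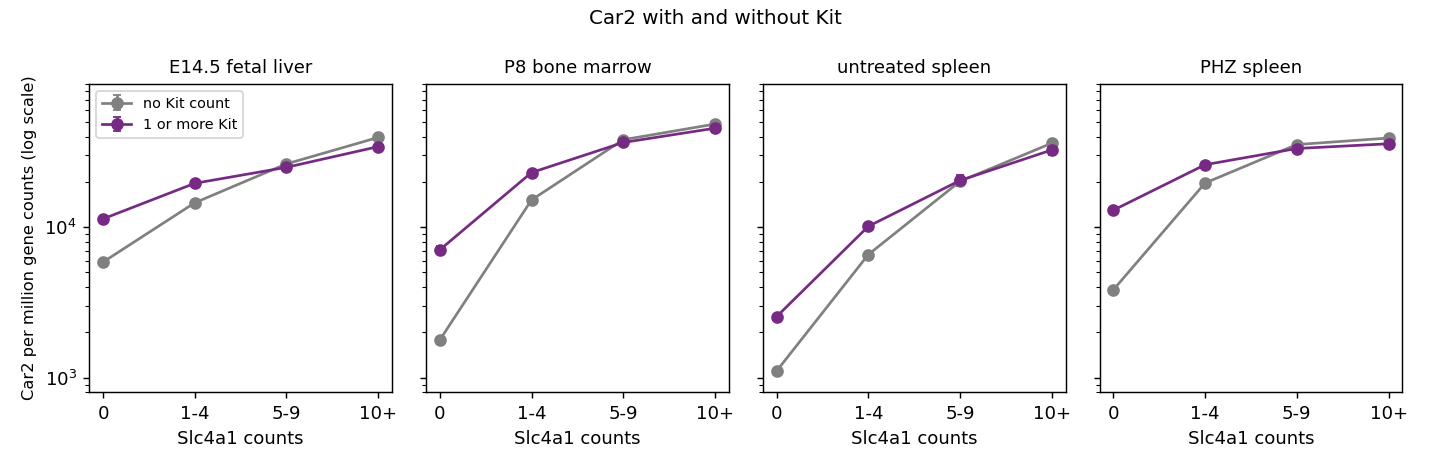
Car2 in CPM (log scale) by Slc4a1 class, 1 plot for each section of the smaller panel, in cells with at least 1 Kit count and cells without Kit; bars are 95% Poisson intervals. Kit-positive cells lie above at 0 Slc4a1 (11358 against 5863 in E14.5 liver) and below at 10 or more (34323 against 39512).

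Car2 was also high in some cells without any Slc4a1 count. Those in which the progenitor list (Kit and the erythroid transcription and cytokine receptor genes Gata1, Klf1 and Epor) led all other lists had 30581 CPM in E14.5 liver (272 cells), 49877 in P8 marrow (82 cells), 20455 in the untreated spleen (451 cells), 36586 in the PHZ spleen (973 cells), 12668 in E13.5 liver (90 cells) and 37212 in 89-week marrow (510 cells). In P8 marrow this interval (45253 to 54846) spanned the 48112 CPM of the Slc4a1-rich class, and in the other 5 sections the level lay below that of the class. Mast cells and megakaryocytes share some of these genes, so the list does not single out erythroid cells alone. Slc4a1-negative cells with at least 5 Car2 counts numbered 216, 125, 195, 686, 187 and 3016 in the order E14.5 liver, P8 marrow, untreated spleen, PHZ spleen, E13.5 liver and 89-week marrow. They held 39.6%, 22.7%, 15.01%, 34.0%, 53.9% and 52.1% of the Car2 in their class. A progenitor-list gene was counted in 99.5%, 90.4%, 96.9%, 97.2%, 75.9% and 59.6% of them in this order, against 55.6%, 8.99%, 14.7%, 13.8%, 8.50% and 2.74% of Slc4a1-negative cells without Car2. These cells were picked by their Car2, and their median of all counts was also higher, at 228, 135, 202, 163, 427 and 213 against 122, 81, 79, 67, 166 and 45 in the same order. The part of this depth in the shares was not tested.

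The genes whose pattern was most like that of Car2 were found by correlating log2(CPM + 10) over the groups of section, Slc4a1 class and Kit status. Over 32 such groups of the smaller panel and 430 genes, Rhd (Pearson r = 0.976), a Rhesus blood group protein of the red cell membrane, Hemgn (0.965), Prx (0.962), the gene of periaxin, and Tspan8 (0.956), a tetraspanin, were among the closest. Slc4a1, which defined the groups, came 20th at 0.847. Over 16 groups of the larger panel and 2238 genes, the closest included Mki67 (0.952), a marker of dividing cells, Tnfrsf14 (0.938), Sptb (0.926), a beta chain of spectrin, and Cd24a (0.925), a surface antigen of early blood cells. Each group was 1 point whatever its size. On the larger panel the Kit-positive groups of E13.5 liver held 9 cells at 5 to 9 Slc4a1 counts and 6 at 10 or more. The 89-week group with Kit at 10 or more held 13. Groups of 1 section also share their tissue and slide, so these coefficients and their order only describe the pattern.

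Within cells of the smaller panel, Car2 transcripts lay over the nucleus in 57.3% of cases in E14.5 liver, 56.8% in P8 marrow, 50.8% in the untreated spleen and 49.5% in the PHZ spleen. All genes together had 57.2%, 48.9%, 58.9% and 51.0%. From the most nuclear gene downward Car2 ranked 122nd of 292, 77th of 253, 234th of 293 and 148th of 273. In the P8 classes with 5 to 9 and with 10 or more Slc4a1 counts, however, Car2 was less nuclear than all genes, at 56.9% against 59.5% and 59.3% against 62.1%. Slc4a1 was more nuclear in each section, at 60.3%, 63.1%, 53.1% and 56.4%. In the PHZ spleen the Car2 share was 39.5%, 41.4%, 49.7% and 53.4% from cells without Slc4a1 to those with 10 or more, and that of all genes 47.9%, 44.2%, 52.6% and 56.9%. In the untreated spleen it was 51.8%, 41.9%, 49.8% and 61.6%, lowest in cells with 1 to 4 Slc4a1 counts, and that of all genes was 59.8%, 53.6%, 52.2% and 59.3%. Nuclei made up 36.9%, 26.7%, 35.9% and 40.3% of cell area in the PHZ classes, and the part of this difference in the share was not tested. Car2 transcripts outside any cell made up 5.18% in E14.5 liver, 4.13% in P8 marrow, 5.72% in the untreated spleen and 3.66% in the PHZ spleen. Over all genes this share was 2.83%, 10.6%, 0.595% and 1.73% in the same order, so only in P8 marrow was that of Car2 the lower one.

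The comparison of both spleens asks how Car2 differed in the organ that takes up erythropoiesis after hemolysis. Car2 was 25491 CPM in the PHZ spleen and 2970 CPM in the untreated spleen, a difference of 8.58-fold (8.48 to 8.69) or 3.10 on the log2 scale. At least 2-fold higher levels were seen for 17.5% of the 343 genes with enough counts and at least 2-fold lower levels for 35.6%, and Car2 ranked 21st from the highest. Of the erythroid list 17 of 19 genes were at least 2-fold higher with a median of 8.69-fold, so Car2 stood near the middle of that list. Rhd was 24.0-fold higher, Hemgn 18.6-fold, the erythroid transcription factors Klf1 and Gata1 17.9-fold and 16.3-fold, and Hbb-bt 5.19-fold. Slc4a1 was 11.2-fold higher, from 3644 to 40969 CPM. Kit did not follow, at 1925 CPM in the PHZ spleen and 1934 CPM in the untreated one.

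Counted per cell, most of the difference between the spleens lay in the mix of Slc4a1 classes. Cells with 0, 1 to 4, 5 to 9 and 10 or more Slc4a1 counts made up 88.7%, 9.55%, 1.00% and 0.786% of the untreated spleen and 35.2%, 25.2%, 18.3% and 21.3% of the PHZ spleen. Within these classes the PHZ spleen exceeded the untreated one in CPM by 3.90-fold, 2.92-fold, 1.73-fold and 1.08-fold. In counts per cell the ratio was 3.79, 2.55, 1.42 and 0.925, so that cells with 10 or more Slc4a1 counts held 7.29 Car2 counts in the PHZ spleen and 7.88 in the untreated one (ratio 0.902 to 0.948). In that class the direction therefore depended on the scale. Transcripts under a quality score of 20 were not counted, and their share differed between the spleens. It was 29.1% over all genes and 19.5% for Car2 in the PHZ spleen, against 9.45% and 5.70% in the untreated one. The part of this in the spleen differences was not tested. Giving the untreated spleen the class mix of the PHZ spleen would raise Car2 from 0.284 to 2.51 per cell, 79.5% of the whole difference of 2.80 per cell. Giving it the PHZ levels at its own mix would raise it to 0.720 per cell, or 15.6%. Averaged over both orders of substitution, the mix accounted for 81.9% of the difference. The classes were not matched in Slc4a1 within their bounds. Cells with 1 to 4 counts held 2.17 Slc4a1 per cell in the PHZ spleen and 1.62 in the untreated one. Those with 5 to 9 held 6.87 and 6.38. The part of this in the differences within classes was not tested.

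**Figure D3:**
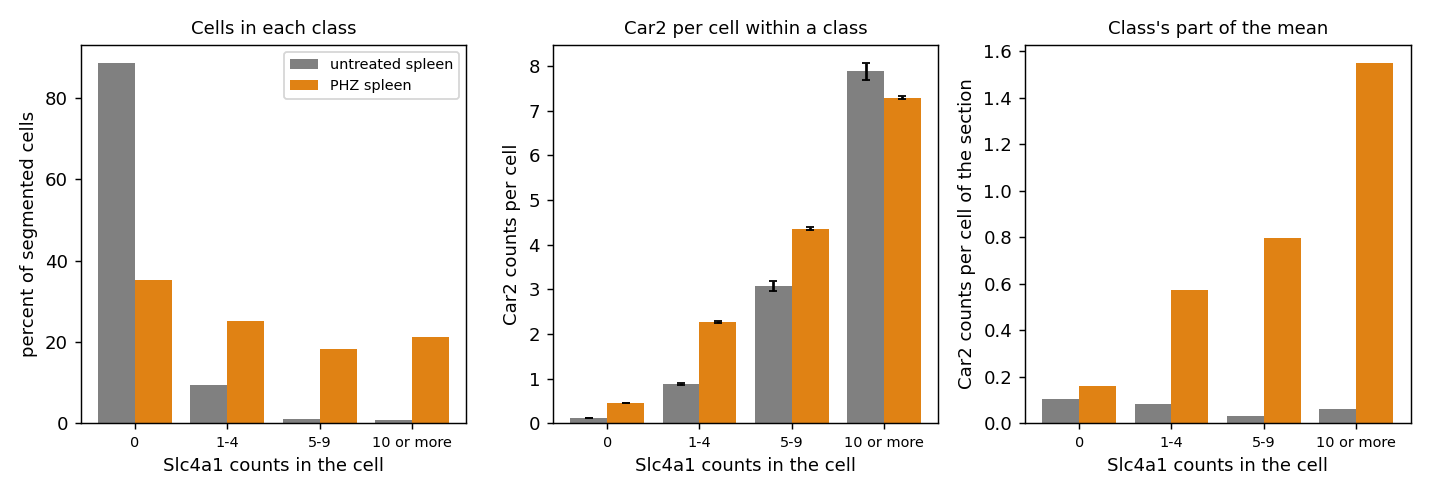
The untreated and PHZ spleens by Slc4a1 class: share of cells in percent, Car2 counts per cell with 95% Poisson intervals, and the product of both, which is what each class adds to the section's Car2 per cell. At 10 or more Slc4a1 counts the class shares differ more (0.786% against 21.3%) than Car2 per cell (7.88 and 7.29). In cells without Slc4a1 the shares are 88.7% and 35.2% and Car2 per cell is 0.120 and 0.454.

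Cells of the Slc4a1-rich class also differed between the spleens in other ways. Slc4a1 itself was 16.5 per cell in the untreated spleen and 14.8 in the PHZ spleen. The median cell area was 51.5 and 68.0 µm2. Counts of the 6-gene macrophage list, which holds the C1q genes, were 11.2 per cell in the untreated spleen and 3.45 in the PHZ spleen, and those of C1qb alone 4.38 and 1.42. The part of these differences in the Car2 values was not tested. In PHZ cells without Slc4a1, Car2 was 0.454 per cell against 0.120.

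Non-erythroid cells were taken as those without an Slc4a1 count in which at least 3 counts of 1 cell type's marker list were found, more than of any other list. Over all such cells Car2 was 5408 CPM in E14.5 liver, 1853 in P8 marrow, 1232 in the untreated spleen, 3328 in the PHZ spleen, 2052 in E13.5 liver and 2721 in 89-week marrow, far below the Slc4a1-rich cells of the same section. In P8 marrow the cells of the neutrophil list had 9291 CPM, those of the macrophage list 8664, of the osteoclast list 6895, of the megakaryocyte list 6241 and of the endothelial list 4379. Lists of tissues away from the marrow were lower, with 1583 CPM for the osteogenic list, 577 for cartilage, 537 for stromal cells and 460 for skeletal muscle. At 80 µm or more from cells with 10 or more Slc4a1 counts the order was another, with 2793 CPM for the osteoclast list, 873 for the macrophage list from 3 counts, 712 for the osteogenic list and no Car2 count in 53 cells of the endothelial list (interval up to 668 CPM), and with 1 cell each left of the neutrophil and megakaryocyte lists. In E14.5 liver the hepatocyte list had 9522 CPM and the stromal list 1823. In 89-week marrow the macrophage list had 5521 CPM and the neutrophil list 2022.

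**Figure D4:**
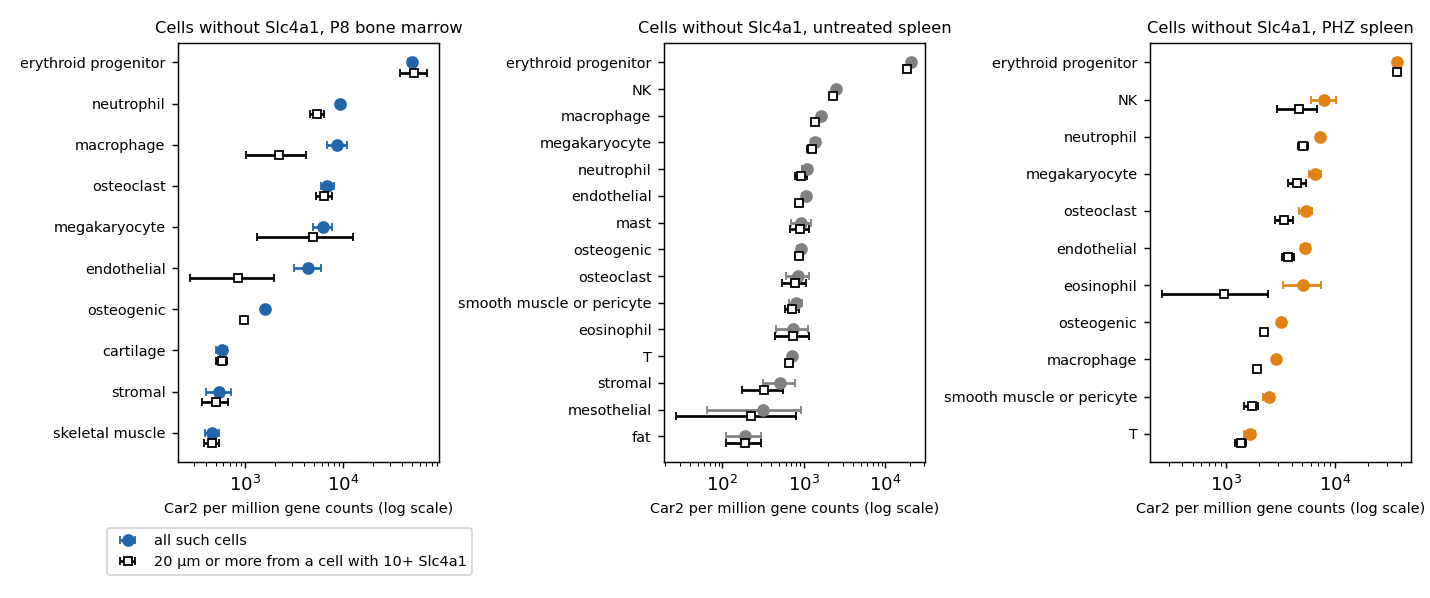
Car2 in CPM (log scale) in Slc4a1-negative cells of P8 marrow, the untreated spleen and the PHZ spleen by marker list, with filled circles for all cells of a list, open squares for those at least 20 µm from a cell with 10 or more Slc4a1 counts, and 95% Poisson intervals. The erythroid progenitor list stands highest in each section drawn (49877 in P8 marrow), and cartilage and muscle of the P8 section lie at 577 and 460.

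The level in Slc4a1-negative cells went down with distance from the nearest cell with 10 or more Slc4a1 counts, in all 4 sections of the smaller panel. In P8 marrow it was 16114 CPM within 10 µm, 10592 at 10 to 20 µm, 5510 at 20 to 40 µm, 1891 at 40 to 80 µm and 637 at 80 µm or more. The untreated spleen went from 5536 CPM within 10 µm to 712 at 80 µm or more, the PHZ spleen from 18391 to 1327 and E14.5 liver from 13024 to 1419. In 89-week marrow the descent was from 10556 to 2653 CPM. E13.5 liver had 8376 CPM within 10 µm, 329 at 40 to 80 µm and 698 at 80 µm or more, the last from 22 counts. Hemgn, an erythroid gene that the grouping did not use, went down in the same cells from 8931 to 254 CPM in P8 marrow. Erythroid RNA assigned to neighbouring cells and erythroid cells lacking a Slc4a1 count were not told apart, and their part in the levels of the marker lists was not tested.

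**Figure D5:**
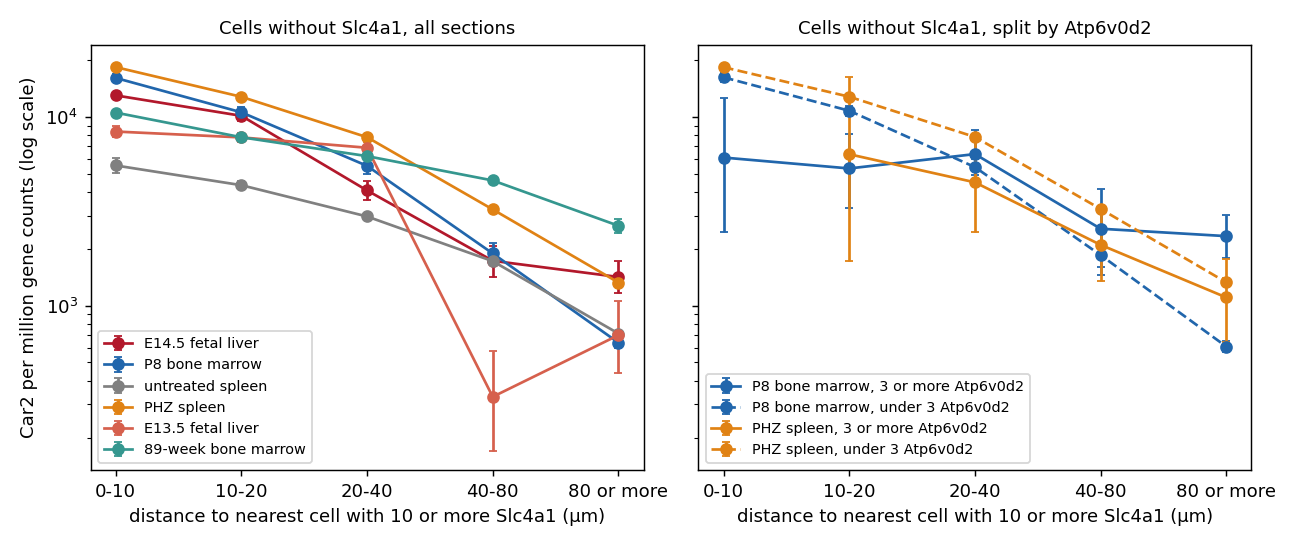
Car2 in CPM (log scale) in Slc4a1-negative cells against distance in µm to the nearest cell with 10 or more Slc4a1 counts, all 6 sections on the left and, on the right, P8 marrow and the PHZ spleen split into cells with at least 3 Atp6v0d2 counts (solid) and under 3 (dashed); bars are 95% Poisson intervals. P8 marrow goes from 16114 to 637, and its Atp6v0d2-high cells stay at 2337 at 80 µm or more, above the other cells at 607.

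At 80 µm or more, all non-erythroid lists together had 1355 CPM in E14.5 liver, 631 in P8 marrow, 642 in the untreated spleen, 1107 in the PHZ spleen and 759 in 89-week marrow. In E13.5 liver they had 70.4 CPM (8.53 to 254), from 2 counts in 58 cells. Cells of the NK list (Ncr1, Klrb1c and Klra8, receptors of natural killer cells) stood out in the untreated spleen, with 2509 CPM in 1770 cells against 715 CPM in 20126 cells of the T list. At 80 µm or more they had 1722 CPM (1461 to 2015, 155 counts in 938 cells) against 527 CPM (491 to 566) for the T list. Car2 was found in 19.7% (17.8 to 21.6) of NK-list cells at a median of 96 gene counts and in 5.47% of T-list cells at a median of 83. They held 6.98 Car2 counts for each Hemgn count, against 1.18 in the Slc4a1-rich cells of that spleen. This ratio was also high in other lists, at 6.26 for the endothelial, 6.07 for the osteogenic, 4.32 for the macrophage and 3.98 for the T list. In the PHZ spleen the NK list had 7918 CPM, from 59 counts in 89 cells, and the T list 1655. The neutrophil and megakaryocyte lists were at 7353 and 6610 CPM there, and NK-list cells held 2.57 Car2 counts for each Hemgn count against 2.62 over all non-erythroid lists. At 80 µm or more the NK list had 8399 CPM (4801 to 13639, 16 counts in 30 cells) and the T list 1212. In 89-week marrow the order was the other way, with 3046 CPM (2122 to 4236) in 74 cells of the NK list and 4401 CPM (3114 to 6040) in 60 cells of the T list, and these intervals overlap.

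Osteoclasts are the bone surface cells in which carbonic anhydrase 2 is known to act. Atp6v0d2, a subunit of the vacuolar proton pump enriched in osteoclasts, was used to find them in the P8 section, where 217 Slc4a1-negative cells held at least 3 counts of it. At 80 µm or more from Slc4a1-rich cells, 124 of them remained, and these had the osteoclast markers Mmp9 12.2-fold and Cd68 7.29-fold above other Slc4a1-negative cells, whereas Scin was 1.12-fold. The leading genes by fold were Rac2 (23.3-fold), Ccl9 (19.9-fold) and Ncf4 (13.8-fold), genes of myeloid cells. The other 4 of the 8 listed osteoclast markers were not on the panel. Of the osteogenic list, Runx2 was 3.05-fold (2.70 to 3.43) in the same 124 cells, Col1a1 0.978-fold and Col1a2 0.761-fold. The markers therefore do not single out pure osteoclasts, and the cells are called osteoclast-like here. Collagen type I counts within 20 µm had a median of 24.3 per cell around the 217 cells and 13.0 around other Slc4a1-negative cells, and their nearest neighbour of the same kind lay at a median of 15.2 µm.

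Osteoclast-like cells held 148 Car2 counts, 3390 CPM against 2202 CPM in the other Slc4a1-negative cells, a difference of 1.54-fold (1.30 to 1.81). Genes at least 2-fold higher made up 11.1% of the 315 tested and those at least 2-fold lower 37.1%, and Car2 was not among them. With cells nearer than 20 µm to Slc4a1-rich cells left out, 185 osteoclast-like cells had 3110 CPM against 900, or 3.46-fold (2.84 to 4.16), where 12.0% of 299 genes were at least 2-fold higher and 31.4% lower. At 80 µm or more the values were 2337 against 607 CPM, or 3.85-fold (2.91 to 5.01), where 15.2% of 276 genes were higher and 33.0% lower. There Car2 was found in 46 of the 124 cells (37.1%), with at most 3 counts in a cell, and in 5.33% of the others, at medians of 177 and 85 gene counts. Slc4a1-negative cells at this distance were largely of bone, cartilage, muscle and stroma. They included 5425 of the osteogenic list, 4818 of cartilage, 1444 of skeletal muscle and 737 of the stromal list. Not all marrow cells were lower than osteoclast-like cells. At 20 µm or more the neutrophil list had 5435 CPM (4594 to 6384, 216 cells), against 3110 in osteoclast-like cells. Nearer to erythroid cells the order of osteoclast-like and other cells was turned, with 6098 against 16242 CPM within 10 µm (7 counts) and 5338 against 10797 at 10 to 20 µm (21 counts). At 20 to 40 µm the levels were 6360 (4639 to 8511) against 5426 CPM (4901 to 5992). At 40 to 80 µm they were 2558 (1462 to 4153) against 1853 CPM (1605 to 2128), and both pairs of intervals overlap. From 20 µm outward, 124 of 185 osteoclast-like cells and 13798 of 15329 others lay at 80 µm or more. The part of this distance mix in the 3.46-fold was not tested. A single osteoclast-like cell held 21 of the 148 counts.

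Car2 was graded with Atp6v0d2 in these distant cells. It was 566 CPM (527 to 608) without Atp6v0d2, 1306 (1068 to 1581) at 1 to 2 counts, 2107 (1537 to 2819) at 3 to 9 and 3600 (1968 to 6040) at 10 or more, the last from 14 Car2 counts in 13 cells. Of the erythroid list, 1 of 18 genes with enough counts was at least 2-fold higher in the osteoclast-like cells at this distance and 2 were at least 2-fold lower, with a median of 1.27-fold (0.35 on the log2 scale, against -0.18 over all genes tested). Hbb-bt was 0.566-fold. Hemgn was 1.25-fold from 8 counts (0.536 to 2.49) and Rhd 1.96-fold from 6 counts (0.710 to 4.35). The erythroid list as a whole summed to 35843 CPM against 24274, of which the transferrin receptor Tfrc, an iron uptake gene used by many cell types, was 11169 against 3923. Hk1, a hexokinase, was 1.93-fold (1.57 to 2.35) and Fech, the ferrochelatase of heme synthesis, 1.52-fold (1.26 to 1.82). The part of the list's difference in the Car2 values was not tested.

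The same selection in the spleens did not find higher Car2 in CPM. In the untreated spleen 112 cells with at least 3 Atp6v0d2 counts held 6 Car2 counts, 252 against 1322 CPM, or 0.191-fold (0.0699 to 0.415). In the PHZ spleen 182 such cells had 2229 against 5170 CPM, or 0.431-fold (0.335 to 0.546), and at 80 µm or more 0.832-fold (0.483 to 1.34). At that distance Car2 was found in 14 of 100 of them and in 8.59% of the others, at 0.170 and 0.103 counts per cell and medians of 131.5 and 64 gene counts. In 89-week marrow 13 cells qualified, with 5 Car2 counts, 1680 against 6610 CPM, or 0.254-fold (0.0825 to 0.593).

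Other genes of acid, bicarbonate and gas handling were few on the panels, with 7 of 16 besides Slc4a1 on the smaller and 4 on the larger. In the spleen comparison 3 of the 6 with enough counts were at least 2-fold higher in the PHZ spleen, where 17.5% of all genes tested were. These were Aqp1, a water channel of red cells, at 11.5-fold, Rhd at 24.0-fold and Atp6v0d2 at 2.07-fold. Aqp1 and Rhd are also members of the erythroid list. Car3, the cytosolic carbonic anhydrase of muscle and fat, was lower, at 47.2 against 1627 CPM. The untreated section held 329 cells of the fat list, which includes Car3, and the PHZ section too few to be listed. The part of these cells in the Car3 difference was not tested. Between Slc4a1 classes Aqp1 ran with Car2 in P8 marrow, from 4483 CPM without Slc4a1 to 27911 with 10 or more, and in the PHZ spleen, from 3112 to 34187, but not in E14.5 liver, from 3884 to 6204 by way of 7099 at 5 to 9 counts. Car3 was opposite to Car2 in P8 marrow, from 7369 to 349 CPM. On the larger panel the membrane-bound Car4 had 10 and 40 counts and the cytosolic Car7 16 and 70 counts in E13.5 liver and 89-week marrow. Among Car2 and the carbonic anhydrase genes of this list found on each panel, Car2 had by far the most counts in the erythroid classes of these sections. Carbonic anhydrase genes outside the list were not looked up.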

How the data were processed

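Xenium in situ hybridisation was run on 6 mouse sections, 1 for each group named in the labels. The authors deposited, per section, a count of decoded transcripts for each gene and cell with cell areas and positions and, for the smaller panel, single transcripts with a quality score, those at 20 or above being counted. Transcripts were decoded and cells segmented by the instrument software (1.7.1.0 for the smaller panel, 3.1.0.4 for the larger), per the file headers. The genome build was not given in the sources used here. The deposited counts were used for all cells without further filtering, and no doublet caller was run, because a cell outline can hold RNA of neighbouring or overlying cells. Codewords and control probes of no gene were left out of totals and made up 0.00875% to 0.0551% of the counts in cells.

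Car2 was summed over cells and divided by all gene counts. Shares of genes past a fold of 2 were taken over genes with at least 1000 counts in both spleens together, or at least 100 in both groups of cells together, with 3 counts in place of a 0. Thinning drew 50 gene counts per cell and left out shallower cells. Named genes were Car2, an erythroid list, an acid, bicarbonate and gas handling list and the 5 genes closest to Car2 on each panel, of which 1 per panel is not reported here. Gene, lists and classes were chosen with earlier results of these data known. Values were computed with Python 3.11.15, NumPy 2.4.6, SciPy 1.17.1, pandas 2.3.3 and matplotlib 3.10.9. The ratio intervals were checked only on simulated counts drawn from the Poisson model that they assume. Such a check cannot show whether they hold for counts that vary more between cells.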

Additional observations from a re-analysis of the deposited data

How the results depend on the processing

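No paired analysis was possible because each group holds 1 section. Of 84 alternatives over 25 results, 65 moved a value by more than its counting interval, and none of the log2 ratios changed sign. Section levels without Hbb-bt in the total were 34151 CPM in E14.5 liver, 27476 in P8 marrow and 26690 in the PHZ spleen. With Slc4a1 left out too they were 36670, 28845 and 27886, and 3007 in the untreated spleen. Without Slc4a1 the larger-panel sections had 19200 (E13.5) and 17513 CPM (89-week). Transcripts over the nucleus gave 30404 in P8 marrow, 2558 and 24771 in the untreated and PHZ spleens, and quality scores of at least 30 gave 26706 in E14.5 liver, 21390 in P8 marrow, 2751 and 19145 in the untreated and PHZ spleens.

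The log2 ratio of Car2 between cells with 10 or more Slc4a1 counts and those with none was, counted per cell, 2.76, 5.05, 6.04, 4.01, 2.93 and 4.73 in E14.5 liver, P8 marrow, untreated spleen, PHZ spleen, E13.5 liver and 89-week marrow. With Slc4a1 out of the total it was 2.40, 4.58, 4.87, 3.03 and, in 89-week marrow, 3.11. Hemgn classes in place of Slc4a1 gave 1.90, 3.09, 4.56 and 2.51 in the smaller-panel sections, over the nucleus 3.99 (P8), 5.02 (untreated) and 3.10 (PHZ), and thinned cells 4.31 (P8), 3.05 (PHZ), 2.27 (E13.5) and 3.29 (89-week).

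For non-erythroid lists, at least 5 marker counts gave 1744 CPM in P8 marrow, 1273 and 3223 in the untreated and PHZ spleens, 1608 in E13.5 liver and 2201 in 89-week marrow. Cells with no erythroid-list count had 576 (P8), 643 (untreated), 1051 (PHZ), 727 (E13.5) and 1425 CPM (89-week), and cells at least 20 µm from Slc4a1-rich cells 1986 (E14.5), 897 (P8), 1061 (untreated), 2170 (PHZ), 870 (E13.5) and 2244 CPM (89-week). The log2 ratio for osteoclast-like cells was 0.62, but 1.79 from 20 µm and 1.94 from 80 µm outward. The log2 ratio of the spleens was 3.44 per cell, 2.67 per mm2, 3.16 without Hbb-bt, 3.28 over the nucleus and 1.34 at the untreated class mix. The nuclear share at quality 30 was 59.0%, 58.4%, 51.5% and 51.8% in E14.5 liver, P8 marrow, the untreated spleen and the PHZ spleen. The distance of 80 µm, the removal of the cell with most Car2 (log2 ratio 0.41) and the nuclear share at quality 30 were chosen after seeing the data. Classes by Hemgn, totals without Hbb-bt and alternatives on single transcripts were not run for the larger panel, nor cells with no erythroid-list count in E14.5 liver, of which there were 16. Counts were few in the larger panel's Slc4a1-rich cells with Kit, of which there were 6 and 13.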
